A study of Mus musculus with 12 samples.

Results

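The killer lectin-like receptor (KLR) genes examined here comprised each gene symbol of the RNA-seq table that begins with Klr followed by a, b, c, d, e, g, h, i or k and that had at least 1 non-zero value. This rule found 28 genes among the 20862 with a non-zero value and the 25860 listed; a further symbol, *Klra14-ps*, was at 0 in all libraries. KLRs are C-type lectin-like surface receptors best known from natural killer (NK) cells, and antigen-experienced CD8+ T cells also carry some of them. Inhibitory members recruit phosphatases through motifs in their own tails. Activating members lack these motifs and signal through the adaptors DAP12 (encoded by *Tyrobp*) or DAP10 (encoded by *Hcst*). Many recognize MHC class I or related molecules, so that the balance of receptors on a cell sets how it responds to class I on its neighbours.

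The cells were stem-like progenitor CD8+ T cells (T_prog_) sorted from the pancreatic lymph nodes of NOD mice as Ly108+CD39- by the methods and as Ly108+CXCR6- by the series description. All carried the TCR 8.3 transgene (NY8.3), whose receptor recognizes the islet antigen IGRP. *UTX TCD* mice had floxed *Kdm6a* (encoding the histone demethylase UTX) deleted by a Cre transgene under *Lck* regulation, which is active in T cells, and had been backcrossed from C57BL/6 to NOD. WT controls lacked Cre. The mice were female, and the sources used here do not give the age of those sampled for these libraries. Each genotype had 3 RNA-seq and 3 ATAC-seq libraries, labelled as separate samples. Reads assigned to genes came to 146456724, 144503203 and 193568919 in WT replicates 1 to 3, and to 61512402, 175462433 and 187275082 in *UTX TCD* replicates 1 to 3. *UTX TCD* replicate 1 was thus the shallowest library. Counting error was therefore larger there for genes with few reads.

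The targeted gene was measured first. *Kdm6a* stood at 28365, 28949 and 29172 normalized counts (read counts divided by a size factor for each library) in WT and at 24158, 24792 and 24579 in *UTX TCD*. Each *UTX TCD* library was lower than each WT library. The log2 fold change was -0.23 (95% interval -0.32 to -0.15, limma adjusted p = 0.00114), and with the fold limit given below *Kdm6a* was not called. The count covers the whole gene, and reads from exons that Cre leaves in place are part of it, so its level is no measure of how many cells had lost UTX. Defining markers fitted the labelled cell type, with *Cd8a* at means of 272155 and 298501 normalized counts in WT and *UTX TCD*, *Cd3e* at 139315 and 156333, *Tcf7*, which encodes the progenitor factor TCF1, at 235632 and 224012, and *Slamf6*, which encodes Ly108, at 28378 and 34357. None of these 4 passed the call.

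To ask which KLR genes differed with UTX, limma was fitted to the 14459 genes whose normalized counts averaged 10 or more over the 6 libraries, on log2(normalized count + 1), and a call required an adjusted p below 0.05 and an absolute log2 fold change above 0.5. Of the 28 KLR genes, 16 were tested. Among these, 10 rose in *UTX TCD* cells (*Klra1*, *Klra4*, *Klra5*, *Klra6*, *Klra13-ps*, *Klrc1*, *Klrc2*, *Klrc3*, *Klre1* and *Klri2*), 1 fell (*Klrb1f*) and 5 were not called (*Klrd1*, *Klrk1*, *Klra7*, *Klrb1c* and *Klrg2*). Over all genes tested, 10.5% were called higher, 7.05% were called lower and 17.6% were called in either direction. The filter bears on this count. Of the 16 tested genes, 11 had a mean of at least 10 in each genotype, and 6 of the 10 that rose were among them. The other 5 (*Klra5*, *Klra6*, *Klra7*, *Klrc3* and *Klri2*) passed the filter only through *UTX TCD*. Since these are bulk libraries, more cells with a transcript and more transcript per cell cannot be told apart in any of these results.

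The 2 receptor genes with the highest levels, *Klrd1* and *Klrk1*, were not called. *Klrd1* encodes CD94, the shared partner chain of the NKG2 receptors encoded by the *Klrc* genes. It stood at 17419, 16774 and 15651 normalized counts in WT and at 13163, 11226 and 13499 in *UTX TCD*. The *UTX TCD* libraries were all lower than the WT libraries. The log2 fold change of -0.40 (95% interval -0.56 to -0.23, adjusted p = 0.00244) did not reach the fold limit. An adjusted p below 0.05, whatever the fold, was found for 40.7% of all genes tested. *Klrk1* encodes NKG2D, an activating receptor for stress-induced ligands. Its 5475, 4495 and 4635 normalized counts in WT overlapped the 5192, 4457 and 4601 in *UTX TCD*, with a log2 fold change of -0.03 (95% interval -0.23 to 0.16, adjusted p = 0.787). The sign of this value changed when libraries were scaled to the same sum (0.03).

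Per kilobase of annotated exon, the order of levels in WT began with *Klrd1* (12970 normalized counts per kilobase) and *Klrk1* (678), followed at a wide distance by *Klrb1f* (48.3), *Klra1* (30.8) and *Klrc1* (21.8). In *UTX TCD* the same scale gave 9859 for *Klrd1*, 661 for *Klrk1*, 169 for *Klra1*, 166 for *Klrc1*, 64.5 for *Klra13-ps*, 60.5 for *Klra4* and 52.2 for *Klrc3*. The order depends on exon lengths over all annotated transcripts (1281 bases for *Klrd1*, 7183 for *Klrk1*, 5812 for *Klrc2* and 736 for *Klrc3*). Which transcripts were present was not tested. By normalized counts alone, the *UTX TCD* means were 12630 for *Klrd1*, 4750 for *Klrk1*, 224 for *Klrc2* and 38.4 for *Klrc3*. *Klra1* and *Klrc1* did not differ in level beyond their spread in *UTX TCD*. The genes that rose therefore stayed far below the level of *Klrd1* in either genotype.

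**Figure D1:**
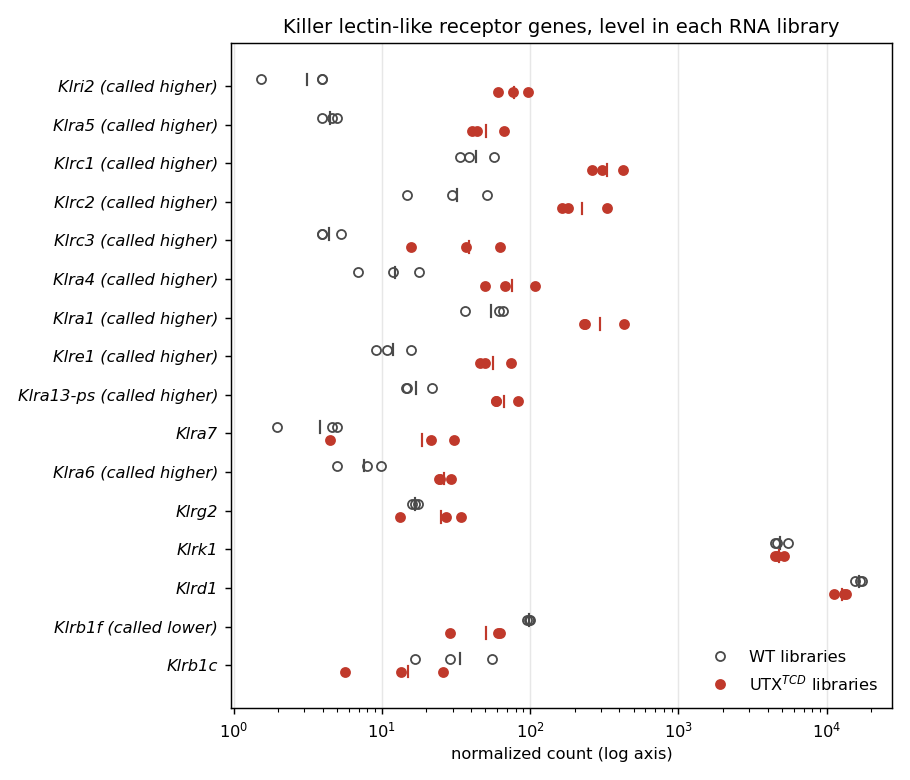
Normalized counts (log axis) of the 16 tested KLR genes in each RNA-seq library, open circles for the 3 WT and filled circles for the 3 *UTX TCD* libraries, vertical bars for genotype means, in order of log2 fold change. The filled circles lie to the right of all open circles for the 10 genes called higher, and *Klrd1* and *Klrk1* lie far to the right of all others.

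The 3 *Klrc* genes, which encode NKG2 chains that pair with CD94, all rose. *Klrc1* encodes NKG2A, the inhibitory chain that pairs with CD94 to recognize the nonclassical class I molecule Qa-1. Its level was 33.7, 57.3 and 38.9 normalized counts in WT and 263, 303 and 422 in *UTX TCD*. Every *UTX TCD* library was well above every WT library, with a log2 fold change of 2.91 (95% interval 2.33 to 3.49, adjusted p = 3.84e-05). *Klrc2*, which encodes the activating chain NKG2C, stood at 14.9, 51.3 and 29.7 in WT and at 164, 180 and 328 in *UTX TCD*. Its log2 fold change was 2.86 (95% interval 1.88 to 3.84, adjusted p = 0.000852), again without overlap. *Klrc3*, which encodes the activating chain NKG2E, went from 3.96, 3.95 and 5.34 to 15.7, 36.8 and 62.7. *UTX TCD* replicate 3 was the highest library for all of these genes. The log2 fold change of *Klrc3* was 2.67 (adjusted p = 0.0031), and it was 2.05 with a pseudocount of 5. The *Klrc* genes share sequence. Of all 50-base stretches in the transcripts of *Klrc1*, 38.6% also occur in transcripts of another gene, and *Klrc2* is the gene that shares the largest number of them. The share was 16.3% for *Klrc2* and 36.3% for *Klrc3*. How reads were split among them is uncertain, and their sum is the firmer value. It was 52.5, 113 and 74.0 normalized counts in WT and 443, 520 and 812 in *UTX TCD*, a ratio of means of 7.43.

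Within the *Klrc* genes only *Klrc1* and *Klrc2* were compared, and their ratio depends on the uncertain split of reads. Its size also depends on exon lengths over all annotated transcripts (1984 bases for *Klrc1* and 5812 for *Klrc2*). Per kilobase, *Klrc1* exceeded *Klrc2* by a factor of 6.64, 3.27 and 3.83 in WT and of 4.70, 4.93 and 3.77 in *UTX TCD*. These ranges overlapped. By normalized counts alone the 2 genes lay closer. In WT, *Klrc1* had 33.7, 57.3 and 38.9 against 14.9, 51.3 and 29.7 for *Klrc2*. In *UTX TCD*, it had 263, 303 and 422 against 164, 180 and 328. Relative to the CD94 transcript the summed *Klrc* level was higher in *UTX TCD*. The sum of *Klrc1*, *Klrc2* and *Klrc3* per kilobase came to 0.183%, 0.329% and 0.262% of *Klrd1* in WT and to 1.77%, 2.67% and 3.36% in *UTX TCD*. The size of these percentages rests on the same kind of exon lengths. CD94 transcript was in large excess in all 6 libraries. The ligand gene *H2-T23*, which encodes Qa-1, was at means of 4366 and 4944 normalized counts in WT and *UTX TCD* and was not called (log2 fold change 0.18, adjusted p = 0.0114).

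*Klri2* had the largest log2 fold change among the tested KLR genes, and the gene of its partner chain, *Klre1*, also rose. KLRE1 forms heterodimers with KLRI1, which carries inhibitory motifs, or with KLRI2, which signals through an adaptor. *Klri2* was at 3.96, 3.95 and 1.53 normalized counts in WT (4, 4 and 2 reads) and at 96.7, 76.1 and 60.4 in *UTX TCD* (43, 95 and 82 reads). The groups lay far apart. The log2 fold change was 4.29 (95% interval 3.38 to 5.20, adjusted p = 5.43e-05), and it was 3.34 with a pseudocount of 5, since the WT level rests on very few reads. *Klre1* went from 10.9, 15.8 and 9.15 to 49.5, 45.6 and 74.5, without overlap (log2 fold change 2.15, adjusted p = 0.00104). *Klri1*, the inhibitory alternative, had 0 to 4 reads per library and was not tested. These genes share little sequence with others, as 2.77% of the 50-base stretches of *Klri2* and 0.280% of those of *Klre1* occur elsewhere.

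Of the 12 *Klra* genes, which encode the Ly49 receptors, 6 were tested and 5 rose. Ly49 receptors are the class I receptors of mouse NK cells, and most are inhibitory. *Klra1* encodes the inhibitory receptor Ly49A. It stood at 61.4, 65.2 and 36.6 normalized counts in WT and at 236, 230 and 428 in *UTX TCD*. *UTX TCD* replicate 3 was the highest of all libraries, and the other *UTX TCD* libraries still lay above WT (log2 fold change 2.41, 95% interval 1.73 to 3.10, adjusted p = 0.000297). *Klra4* encodes Ly49D, an activating receptor that signals through DAP12, and went from 11.9, 17.8 and 6.86 to 49.5, 68.1 and 108 (log2 fold change 2.55, adjusted p = 0.00129). *Klra5*, which encodes Ly49E, went from 4.95, 3.95 and 4.58 to 40.5, 44.0 and 66.3 (log2 fold change 3.19, adjusted p = 0.000144, and 2.51 with a pseudocount of 5). By the C57BL/6 gene names to which reads were assigned, receptors of either signalling type were thus among those that rose.

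*Klra6*, which encodes Ly49F, stood at 4.95, 7.90 and 9.91 in WT and at 29.2, 24.8 and 24.3 in *UTX TCD* (log2 fold change 1.70, adjusted p = 0.00636). The transcribed pseudogene *Klra13-ps* went from 14.9, 21.7 and 14.5 to 83.2, 59.3 and 59.0 (log2 fold change 1.92, adjusted p = 0.000904). Neither gene had overlapping groups, and for both the highest library was *UTX TCD* replicate 1, in contrast to the other *Klra* genes that rose. *Klra7*, which encodes Ly49G, was at 4.95, 1.97 and 4.58 in WT and at 4.50, 30.4 and 21.4 in *UTX TCD*. *UTX TCD* replicate 1, with 2 reads for this gene, fell among the WT libraries, and the gene was not called (adjusted p = 0.0683). It passed the call without that library (log2 fold change 2.52) and in count-based tests (2.39 with edgeR and 2.33 with DESeq2).

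The 6 other *Klra* genes had too few reads for the test. *Klra9*, which encodes Ly49I, had 2 to 25 reads per library. *Klra8*, which encodes the activating receptor Ly49H, and *Klra10* had 0 reads in all WT libraries. In *UTX TCD* replicates 1 to 3, *Klra8* had 2, 6 and 13 reads and *Klra10* had 1, 4 and 13. *Klra3* had 0 reads in WT and up to 2 in *UTX TCD*, *Klra2* 0 to 5, and *Klra17* 0 to 3 reads. Read sharing is uneven in this family. It reached 39.8% of 50-base stretches for *Klra10*, 33.1% for *Klra8*, 31.5% for *Klra9* and 20.7% for *Klra3*, against 2.98% for *Klra1*, 4.68% for *Klra4*, 0.655% for *Klra5* and 2.62% for *Klra6*. *Klra7* and *Klra13-ps* were in between (12.3% and 13.7%). NOD mice carry another Ly49 haplotype than the C57BL/6 genome to which the reads were aligned. How this affected single *Klra* genes was not tested.

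The summed *Klra* level was 113, 126 and 80.1 normalized counts in WT and 463, 473 and 750 in *UTX TCD*, a ratio of means of 5.28, and *Klra1* accounted for 52.7% of it. Nearly all KLR reads came from elsewhere, since *Klrd1* alone made up 72.0% of the normalized counts of the 28 genes. The sum over all 28 was 23222, 21700 and 20588 in WT and 19511, 16876 and 19920 in *UTX TCD*. Those groups did not overlap, and *UTX TCD* was lower, with a ratio of means of 0.86. As a share of all reads they did overlap, at 160, 152 and 139 ppm in WT and 141, 120 and 144 in *UTX TCD*. Without *Klrd1* and *Klrk1*, a sum added after the values were seen, the other 26 genes came to 329, 431 and 302 in WT and to 1156, 1193 and 1820 in *UTX TCD*, a ratio of 3.92. No test was run on these sums.

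Of the 5 *Klrb1* genes, which encode NKR-P1 receptors, some of them for Clec2 lectins, 2 were tested, and 1 of these fell. *Klrb1f* was at 100, 94.8 and 98.4 normalized counts in WT and at 60.7, 28.8 and 62.7 in *UTX TCD*. All *UTX TCD* libraries were lower, and the gene was called (log2 fold change -1.01, 95% interval -1.71 to -0.32, adjusted p = 0.0271). This call was lost without *UTX TCD* replicate 2, where the log2 fold change was -0.66. It was also lost without WT replicates 1, 2 or 3, where the log2 fold change stayed at -0.995, -1.03 and -1.01. *Klrb1c*, which encodes the NK1.1 antigen, overlapped between genotypes, with 28.7, 55.3 and 16.8 against 13.5, 5.61 and 25.8 (adjusted p = 0.14). *Klrb1a*, *Klrb1b* and *Klrb1* had 0 to 3, 0 to 7 and 0 to 8 reads per library. The summed *Klrb1* level was 132, 153 and 119 normalized counts in WT and 76.5, 43.2 and 98.0 in *UTX TCD*.

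The remaining KLR genes gave little signal. *Klrg1*, a widely used marker of terminal effector cells, had 0 to 6 reads per library. *Klrg2* stood at 15.8, 16.8 and 17.5 normalized counts in WT and at 27.0, 34.4 and 13.3 in *UTX TCD*, with overlap (adjusted p = 0.40). *Klrh1* had 6 reads, all of them in *UTX TCD* replicate 3. Over all 28 genes, tested or not, 13 had all *UTX TCD* libraries above all WT libraries and 2 had them below (*Klrb1f* and *Klrd1*). Of the 16 tested KLR genes, 10 lay wholly above and 2 wholly below. Over the 14459 genes tested, 25.8% lay wholly above and 26.1% wholly below.

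All 28 genes lie on chromosome 6. In GRCm38 (mm10) coordinates, the NK gene complex from *Klrb1a* to *Klra2* spans chr6:128609227-131247716, and *Klrg1* and *Klrg2* lie outside it. The 5 *Klrb1* genes, of which 2 were tested and none was called higher, occupy its proximal end. The lower coordinate of *Klre1* is 129559365, and in order of position the next are *Klrd1* at 129588092, *Klrk1* at 129610323, *Klrc3* at 129636263, *Klrc2* at 129649602, *Klrc1* at 129666015, *Klri1*, which was not tested, at 129696118 and *Klri2* at 129729041. *Klrd1* and *Klrk1*, which were not called, thus lie between *Klre1* and the *Klrc* genes, which rose. The *Klra* genes that rose extend from *Klra5* (129898988) to *Klra1* (130363918).

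**Figure D2:**
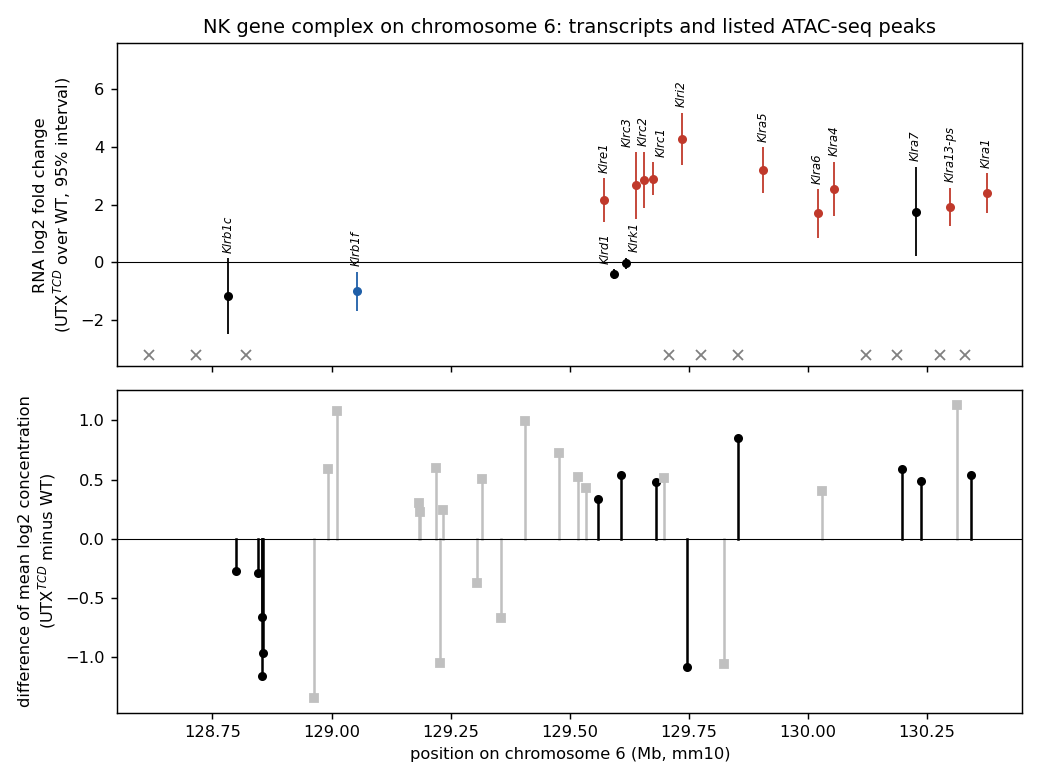
Upper panel, RNA log2 fold change of the tested KLR genes in the NK gene complex (UTX TCD over WT, bars for the 95% limma interval, red called higher, blue called lower, black not called, grey crosses for genes not tested) by position on chromosome 6; lower panel, difference of the authors' mean log2 ATAC-seq concentrations at each listed peak of the complex, black where the peak carries a KLR gene name and grey elsewhere. *Klrg1*, *Klrg2* and *Klra2* lie outside the interval shown. The red points from *Klre1* to *Klra1* flank the black points of *Klrd1* and *Klrk1*, and the less accessible black peaks gather near the *Klrb1* genes.

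To see whether chromatin at these genes also differed, the list of differentially accessible peaks was searched for KLR gene names. The 23932 listed peaks had been selected by the authors at an adjusted p below 0.05, so every peak in it differs by that rule. The methods also set an absolute log2 fold limit of 0.5, which the list does not apply, and 5 of the 15 KLR peaks found have a smaller difference of means. Of all listed peaks, 68.8% were more accessible in *UTX TCD* and 31.2% less. KLR names were attached to 15 peaks at 12 of the 28 genes, of which 9 were more and 6 less accessible, a division near that of the whole list. Levels are the authors' mean log2 concentrations per genotype, with no value for each library.

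Among the genes that rose, 3 had a listed peak, and only that of *Klri2* had an absolute difference above 0.5. At *Klrc1* the peak at chr6:129680434-129680834, 1661 bases upstream of the start used in the deposited annotation, went from a mean log2 concentration of 9.94 in WT to 10.42 in *UTX TCD* (difference 0.48). At *Klre1* the peak chr6:129559254-129559654, placed 18832 bases upstream, had 7.65 and 7.99 (difference 0.34). The deposited annotation calls both peaks intergenic and the GENCODE vM21 models hold no gene at them. The longer RefSeq gene spans differ here, since the first peak lies within the *Klrc1* span and the second covers the lower end of the *Klre1* span. At *Klri2* the direction was the opposite of its transcript. The intergenic peak chr6:129746107-129746507, 5823 bases upstream, went from 8.44 to 7.36 (difference -1.09), while *Klri2* had the largest log2 fold change of the tested KLR genes. The intergenic peak chr6:129606903-129607303, 15293 bases beyond the start of *Klrd1*, went from 8.88 to 9.41 (difference 0.53), although *Klrd1* transcript was not higher.

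The *Klra* peaks were all more accessible. Those assigned to *Klra9* (chr6:130197582-130197982), *Klra7* (chr6:130237825-130238225) and *Klra3* (chr6:130342129-130342529) lie 4670, 4703 and 4703 bases upstream of the respective starts, with differences of 0.59, 0.49 and 0.53. The deposited annotation places these 3 in an intron of a RefSeq transcript, whereas the GENCODE vM21 models hold no gene at them. The peak at *Klra17* (chr6:129853463-129853863, in an intron) had a difference of 0.85. None of the *Klra* genes that rose had a listed peak of its own name. Peaks under other names did lie near *Klra6* and *Klra13-ps*, beyond their upper ends (130026960 and 130306432). They were named for *Klra19* (chr6:130029723-130030123, difference 0.40) and *Klra23* (chr6:130311893-130312293, 1.13), outside the gene rule, and were chosen after their values were seen. *Klrb1b* had 4 peaks, all less accessible, and the one with the largest difference (chr6:128852768-128853168, -1.16) lies 26653 bases upstream, in an intron of *BC035044*. The peaks at *Klrb1c* (chr6:128798446-128798846, intergenic in the deposited annotation) and *Klrg2* (chr6:38636735-38637135, in the first exon) had differences of -0.27 and 1.66, and that of *Klrg1* (chr6:122258869-122259269, intergenic, 23764 bases from the start) had 0.69.

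The peaks of *Klra9*, *Klra7* and *Klra3* share their distance from the start, and they share sequence. Over the 401 bases of a peak, *Klra9* and *Klra3* were 95.5% identical in a global alignment, and *Klra7* matched them at 66.3% and 67.3%. For comparison, the *Klra17* peak, which lies elsewhere in its gene, matched *Klra9* at 58.6%. Copies of the *Klra9* element were found in the genome sequence near other *Klra* genes, with 93.8% of its bases identical near *Klra6*, 89.0% near *Klra5*, 87.3% near *Klra10*, 78.3% near *Klra4* and 73.1% near *Klra1*, and no peak was listed at these. By this search, which differs from the global alignment, the copies at the *Klra3* and *Klra7* peaks had 98.0% and 73.6%. Weaker matches without a listed peak lay near *Klra13-ps* (59.1%), *Klra8* and *Klra17* (52.6% each) and *Klra2* (44.1%). Only reads with a unique position had been kept for ATAC-seq, and how this bears on the listed peaks was not tested.

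Short letter strings that match factors active in progenitor CD8+ T cells were searched on both strands of every listed peak of 401 bases on a chromosome (23907 peaks). CTTTGA, the core of TCF and LEF sites, was in 30.6% of these. TGTGGT, bound by RUNX factors, was in 39.7%, TGANTCA (AP-1) in 12.8%, TTCNNNGAA (STAT) in 11.9% and GGTGTGA (T-box) in 7.09%. Of the 15 KLR peaks, 6 held the TCF/LEF letters, 5 the RUNX letters, 4 the AP-1 letters, 1 the STAT letters and 1 the T-box letters. The RUNX, AP-1 and TCF/LEF letters occurred together in 4 KLR peaks, those of *Klrc1*, *Klra9*, *Klra7* and *Klra3*, and in 2.08% of all peaks searched. The last 3 are related sequences, as described above, and do not count as separate observations. In promoters (250 bases before to 50 after a start, RefSeq GRCm38.p6), found for 24 of the 28 genes, the RUNX letters occurred for 8 genes, TCF/LEF for 6, STAT for 4, AP-1 for 4 and T-box for 1. Some genes have more than 1 promoter, and these can overlap. Of all 32851 promoters, 16.8% held the RUNX letters, 16.0% TCF/LEF, 8.30% STAT, 7.81% AP-1 and 3.98% T-box. A match describes letters and does not make a site.

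The stretch that holds these letters is shown for the 3 *Klra* elements, because their likeness is visible in it. All are taken from RefSeq GRCm38.p6 (mm10), on the plus strand, opposite to the genes, at chr6:130197724-130197915, chr6:130237878-130238068 and chr6:130342261-130342452. Capitals mark, from left to right, RUNX (ACCACA, the reverse complement), TCF/LEF (TCAAAG, the reverse complement) and AP-1 letters.
Klra9: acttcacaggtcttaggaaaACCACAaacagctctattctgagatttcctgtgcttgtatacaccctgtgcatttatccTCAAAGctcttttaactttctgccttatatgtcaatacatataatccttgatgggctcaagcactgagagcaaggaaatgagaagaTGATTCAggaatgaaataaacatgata
Klra7: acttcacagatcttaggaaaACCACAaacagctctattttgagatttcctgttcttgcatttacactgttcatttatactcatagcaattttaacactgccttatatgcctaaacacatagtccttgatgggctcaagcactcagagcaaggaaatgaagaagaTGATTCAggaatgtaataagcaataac
Klra3: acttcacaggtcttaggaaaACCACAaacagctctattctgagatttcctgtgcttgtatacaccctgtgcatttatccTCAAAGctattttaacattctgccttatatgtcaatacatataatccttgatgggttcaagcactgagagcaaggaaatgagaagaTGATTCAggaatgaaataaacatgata
From the start of the RUNX letters to the start of the AP-1 letters there are 145 bases in *Klra9* and *Klra3* and 144 in *Klra7*. The TCF/LEF letters follow the RUNX letters by 59 bases in *Klra9* and *Klra3*. In *Klra7* they do not occur in this stretch, and its peak holds them 310 bases from the RUNX letters.

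At *Klrc1*, the gene with the smallest adjusted p of the family, the letters stand in another arrangement within the upstream peak (chr6:129680554-129680712, plus strand). Capitals mark RUNX (TGTGGT), TCF/LEF (CTTTGA) and AP-1 (TGAGTCA) letters in this order.
Klrc1: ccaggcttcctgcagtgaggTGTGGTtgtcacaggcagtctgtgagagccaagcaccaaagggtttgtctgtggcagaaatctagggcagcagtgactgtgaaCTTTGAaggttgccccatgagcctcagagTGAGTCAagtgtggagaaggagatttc
The peak beyond *Klrd1* was the only KLR peak with STAT letters, shown in capitals (TTCATGGAA) with TCF/LEF letters (CTTTGA) downstream, at chr6:129607038-129607179 on the plus strand.
Klrd1: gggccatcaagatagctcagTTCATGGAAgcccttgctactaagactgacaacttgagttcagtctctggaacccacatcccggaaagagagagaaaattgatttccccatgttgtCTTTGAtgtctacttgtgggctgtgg
The peak upstream of *Klri2*, less accessible although the transcript rose, held none of these letters. Its central 151 bases (chr6:129746232-129746382, plus strand) are shown for that reason without capitals.
Klri2: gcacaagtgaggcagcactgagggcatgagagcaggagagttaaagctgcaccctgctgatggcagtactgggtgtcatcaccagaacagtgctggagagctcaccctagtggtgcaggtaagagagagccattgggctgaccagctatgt

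Adaptors and signalling genes that act downstream of KLRs were examined as a list. Of 24 genes, 23 were tested, 1 rose and 1 fell, and the median log2 fold change was -0.09, against -0.00018 for all genes tested. The gene that fell was *Hcst*, which encodes DAP10, the adaptor of NKG2D. It went from 3745, 3085 and 3099 normalized counts to 1871, 1482 and 1496, without overlap (log2 fold change -1.04, 95% interval -1.28 to -0.79, adjusted p = 0.000113). The ratio of *Klrk1* to *Hcst* per kilobase was 0.147, 0.146 and 0.150 in WT and 0.279, 0.302 and 0.309 in *UTX TCD*. The gene that rose was *Syk*, a kinase that binds DAP12 and is usually low in mature T cells, at 23.8, 27.6 and 20.6 in WT and 87.7, 60.1 and 87.0 in *UTX TCD* (log2 fold change 1.65, adjusted p = 0.00122). *Tyrobp*, which encodes DAP12, overlapped between genotypes, at 155, 159 and 117 against 148, 101 and 92.1 (adjusted p = 0.251).

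**Figure D3:**
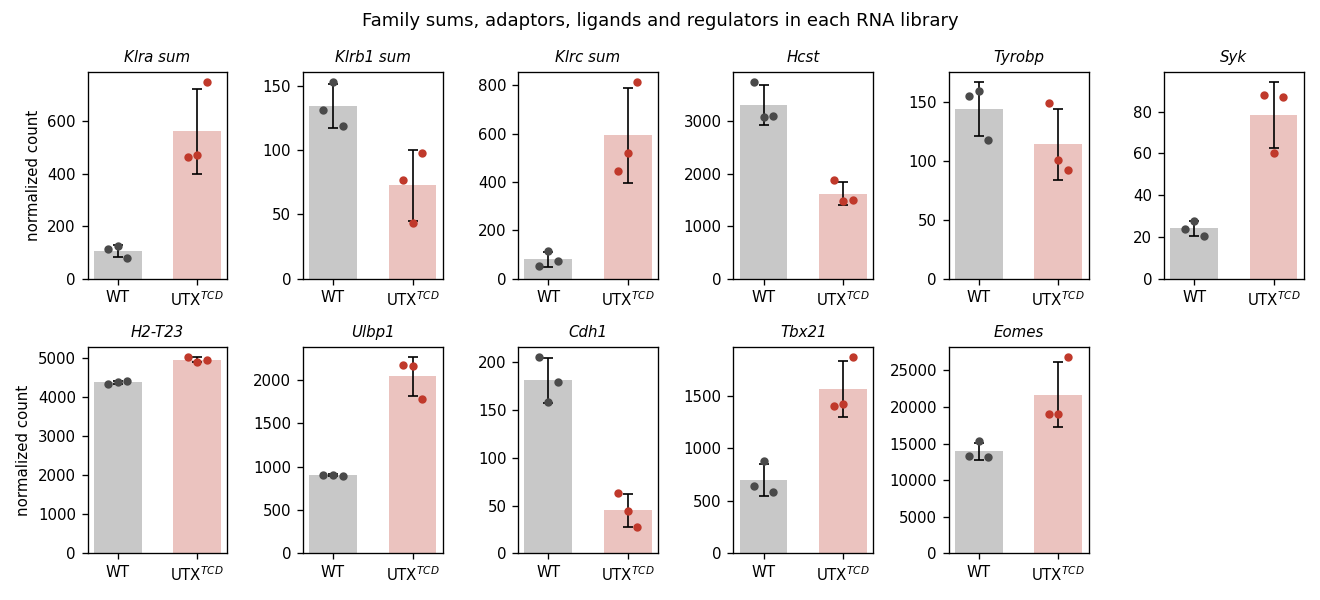
Normalized counts in each RNA-seq library (dots), with the genotype mean (bar) and SD (error bar, n = 3), for the summed *Klra*, *Klrb1* and *Klrc* genes and for adaptors, a kinase, ligands and transcription factors. The *Klra* and *Klrc* sums, *Syk*, *H2-T23*, *Ulbp1*, *Tbx21* and *Eomes* stand higher in *UTX TCD* without overlap, the *Klrb1* sum, *Hcst* and *Cdh1* stand lower without overlap, and *Tyrobp* overlaps.

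Among 20 listed KLR ligand genes, 10 were tested, 1 rose and 1 fell, with a median log2 fold change of 0.08. *Ulbp1*, which encodes the NKG2D ligand MULT1, went from 904, 908 and 892 normalized counts to 2175, 2161 and 1784 (log2 fold change 1.17, adjusted p = 1.86e-05). *Cdh1*, which encodes E-cadherin, the ligand of KLRG1, went from 205, 158 and 179 to 63.0, 44.0 and 28.0 (log2 fold change -2.05, adjusted p = 0.000605). Neither gene had overlapping groups. Of the genes for their receptors, *Klrk1* was not called and *Klrg1* had too few reads for the test. Of 19 other genes listed from the same complex, 7 were tested. *Gabarapl1*, an autophagy gene next to *Klre1*, rose (log2 fold change 0.76, adjusted p = 0.00312). *Clec12a*, an inhibitory lectin receptor of myeloid cells, fell from 22.8, 21.7 and 25.9 to 0, 0 and 4.42 (adjusted p = 0.00253). Its log2 fold change was -3.80, and -2.20 with a pseudocount of 5. *Clec12a* passed the filter only through WT. The other 5, *Clec2d*, *Clec2g*, *Clec2i*, *Cd69* and *Magohb*, were not called.

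Of 21 transcription factor genes listed for their roles in NK and CD8+ T cells, 20 were tested, 4 rose and 1 fell, and the median log2 fold change was 0.18. *Tbx21*, which encodes T-bet, went from 646, 877 and 589 normalized counts to 1404, 1420 and 1872 (log2 fold change 1.16, adjusted p = 0.00057). *Eomes*, its relative, went from 13370, 15315 and 13176 to 19100, 19086 and 26829 (log2 fold change 0.62, adjusted p = 0.00388). Without *UTX TCD* replicate 3, *Eomes* stood at 0.46 and passed the fold limit no longer. *Ikzf2*, which encodes Helios, and *Bach2*, a repressor that maintains stem-like T cells, also rose (log2 fold changes 0.78 and 0.59). *Nfil3*, which NK cell development requires, fell (log2 fold change -0.72, adjusted p = 0.00763). *Zeb2*, a factor of terminal effector cells, was at means of 50.8 and 51.2 and overlapped between genotypes.

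Because KLR genes are typical of NK cells, the markers of cells other than CD8+ T cells were measured beside them. Of 16 NK cell markers, 14 were tested, 3 rose and 4 fell, with a median log2 fold change of -0.40. *Ncr1*, which encodes the NK receptor NKp46, had 0 to 7 reads per library. *Itga2* (DX5) fell (log2 fold change -1.74), as did *Cd160* (-2.18), *Fcgr3* (-2.15), which encodes CD16, and *Gzma* (-1.06), whereas *Il2rb* (0.63), *Ncam1* (2.78) and *Eomes* rose. *Ncam1* passed the filter only through *UTX TCD*, with 4, 5 and 4 reads in WT. Its log2 fold change was 2.09 with a pseudocount of 5. The summed level of the list was 97183, 96977 and 98388 normalized counts in WT and 114692, 115512 and 119951 in *UTX TCD*, and *Il2rb*, which CD8+ T cells also express, made up 46.3% of it.

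Of 7 markers of gamma delta and innate-like T cells, 5 were tested, 3 rose and 1 fell, with a median log2 fold change of 1.55. *Sox13* went from 1860, 1672 and 1788 to 5266, 5192 and 5127 (log2 fold change 1.55, adjusted p = 2.32e-07), with no library apart. *Il23r* rose from 1.98, 8.89 and 4.58 to 15.7, 9.61 and 53.1 (log2 fold change 1.96, adjusted p = 0.0468), a call lost under several alternatives, including the replicate block (log2 fold change 1.96, adjusted p = 0.0547) and without *UTX TCD* replicate 1 (log2 fold change 2.13). *Il23r* passed the filter only through *UTX TCD*. *Trgv2* fell (log2 fold change -1.37). The list sum was 67263, 59873 and 62303 in WT and 63993, 59457 and 59298 in *UTX TCD*, and *Trdc* made up 92.7% of it.

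Of 8 B cell markers, 7 were tested, 2 rose and 2 fell, with a median of 0.15. *Cd22* went from 79.2, 102 and 79.3 to 277, 247 and 502 (log2 fold change 1.90), with *UTX TCD* replicate 3 highest as for the *Klrc* genes. *Ms4a1* rose at low counts (log2 fold change 1.72, adjusted p = 0.0367). This call was lost without *UTX TCD* replicates 2 or 3 (log2 fold changes 1.84 and 1.21) and without WT replicates 1 or 3 (1.38 and 1.60). *Cd79b* (log2 fold change -1.98) and *Ighd* (-0.64) fell. The sum was 115828, 98142 and 107585 in WT and 97039, 91625 and 83349 in *UTX TCD*, with *Ighm* at 97.0% of it. Of 10 myeloid markers, 5 were tested and 3 fell (*Itgam*, *Itgax* and *Csf1r*), none rose, the median was -1.85, and *S100a8* and *S100a9* were at 0. *Itgax* (means of 43.0 in WT and 1.47 in *UTX TCD*) and *Csf1r* (24.2 and 6.07) passed the filter only through WT. The median is the value of *Csf1r*. The myeloid sum was 1290, 1263 and 1132 in WT and 1111, 887 and 1039 in *UTX TCD*, with *Cd68* at 66.5%. Of 4 CD4+ T cell markers, all tested, 2 fell (*Cd4* and *Zbtb7b*), with a median of -0.78, a sum of 518, 413 and 490 in WT and of 391, 382 and 369 in *UTX TCD*, and *Foxp3* at 65.3%. The call for *Cd4* (log2 fold change -0.74, adjusted p = 0.0384) was lost under 8 alternatives, 5 of them with a library left out, where its log2 fold change lay between -0.81 and -0.54. What part NK cells, gamma delta T cells, B cells or any other of these cell types had in the KLR values was not tested.

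All 11 CD8+ T cell markers were tested and none was called, with a median log2 fold change of -0.07 and a sum of 1354154, 1292421 and 1263181 normalized counts in WT and of 1342231, 1254470 and 1189287 in *UTX TCD*. Of 18 effector and memory genes, 16 were tested, 1 rose (*Il2rb*) and 4 fell, with a median of -0.38. Those that fell were *Itgae*, which encodes the integrin CD103 (63644 to 15172 normalized counts, log2 fold change -2.07, adjusted p = 1.88e-08), *Cxcr6*, a receptor of mediator cells and, by the series description, a marker the sort gated out (log2 fold change -1.07, adjusted p = 0.000131), *Gzma* and *Ccl5*. The groups overlapped for *Ccl5*. Its call (log2 fold change -1.34, adjusted p = 0.0325) was lost with edgeR, with DESeq2 and without replicates 1 or 2 of either genotype. In those settings its log2 fold change lay between -1.43 and -0.99.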

How the data were processed

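RNA-seq reads of pancreatic lymph node CD8+ T_prog_ cells were aligned to mm10 with HISAT2 2.2.1 and counted with featureCounts. The strand setting and annotation are not given in the sources used here. The signal values deposited by the authors are counts divided by a DESeq2 size factor per library. All values (100%) were whole multiples of a step per library within a relative tolerance of 1e-06, which gave back reads. The deposited log2 fold changes and p-values of the authors' own comparison, WT over *UTX TCD*, were not used. For ATAC-seq (Bowtie2, Picard, MACS2, DiffBind), the authors' log2 mean concentrations per genotype were used. The other deposited values used as given were the distance to the nearest start, the gene name and the annotation. Their fold and p-value columns were not used, and their FDR column served only to check that every listed peak was below 0.05.

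Limma 3.58.1 (R 4.3.3) with a trended prior was fitted to log2(normalized count + 1), which understates changes of low genes, over genes with a mean of at least 10, with Benjamini-Hochberg adjustment over all 14459. Calls required adjusted p below 0.05 and absolute log2 fold change above 0.5. Intervals are limma's 95% intervals. Simulated reads were used to test the fit. Alternatives covered pseudocount, filter, scaling, edgeR 4.0.16 and DESeq2 1.42.0 on recovered reads, a replicate block, fold limits and omission of each library. Exon lengths and 50-base stretches came from GENCODE vM21. Gene coordinates and sequences came from RefSeq GRCm38.p6 (samtools 1.23.1, Python 3.11.15). Genes named are all members, up to 5 called genes with the smallest adjusted p per list, and 12 genes set by name; each member's peak is the one with the largest difference. *Fcgr3*, *S100a8*, *S100a9*, *BC035044*, *Trdc*, *Foxp3*, *Ighm*, *Cd68* and the uncalled lectin genes were named after their values were seen. One gene so selected is not reported here. Members and lists were chosen with earlier results of these data known.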

Additional observations from a re-analysis of the deposited data

How the results depend on the processing

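Of the 11 KLR genes called, 10 kept direction and call under all alternatives in which they were tested, and *Klrb1f* lost its call when any WT replicate or *UTX TCD* replicate 2 was left out, so that 0 to 1 members were called lower (adjusted p over all alternatives 0.0188 to 0.0792). With a mean of at least 50, 6 members were tested and 3 were called higher; fewer were tested by construction. Without a filter 12 were called higher, *Klra8* and *Klra10* being added. Without a fold limit, 5887 genes were called (2924 higher and 2963 lower), and 2 members were lower, since *Klrd1* then counted. EdgeR called 2541 genes and 11 members higher, DESeq2 2422 and 11. Scaling to the same sum moved the median log2 fold change by 0.06 and the split of calls from 1518 higher and 1020 lower to 1727 and 851. With a replicate block 2474 genes were called, 2423 of them shared, and 10 members were higher. Same-numbered libraries had correlations of 0.31, -0.20 and 0.09 in their deviations, and 3 of 6 libraries correlated best with their own number, so no pairing was assumed; the block changed no call of a member. The ratio of summed KLR levels was 1.18 without *Klrd1* and 3.92 without *Klrd1* and *Klrk1*, an alternative chosen after seeing the data. Peaks with a difference above 0.5 were 6 more and 4 less accessible, and above 1 they were 1 and 2; within 10 kb of a start they were 5 and 1, and over the whole NK complex, whatever the gene name, 21 and 11. *Klrk1*, not called, changed sign when scaled to the same sum (0.0291) and in the omission of WT replicate 1 (0.0542) or *UTX TCD* replicate 2 (0.0110), within a range of -0.10 to 0.05, and *Zeb2* without WT replicate 3 (-0.18) or *UTX TCD* replicate 3 (-0.03), within -0.18 to 0.23; the cause was not tested. Genes with fewer than about 10 reads per library are limited by counting error.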

Other observations

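Some peaks of the NK complex carry a name outside the gene rule. Peaks named for *Klra19* (chr6:130029723-130030123) and *Klra23* (chr6:130311893-130312293), Ly49 names absent from the RNA-seq table, were more accessible in *UTX TCD*, with differences of mean log2 concentration of 0.40 and 1.13. A peak within the *Klri1* gene (chr6:129697534-129697934), named for *Mir680-1*, was also more accessible (0.52). A peak at chr6:129824024-129824424, named *Gm156*, was less accessible (-1.06). In the lectin genes near *Klrb1f*, a peak named for *Clec2g* was less accessible (-1.34) and a peak named for *Clec2f* more accessible (1.08). These peaks were chosen after their values were seen. Of the 32 listed peaks in the complex, 19 carried a name other than a KLR gene in the RNA-seq table.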
